A study of Mus musculus with 36 samples.

Results

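The Hox genes on the arrays of liver, white fat (WAT) and brown fat (BAT) of mice were compared between the tissues, and between mice given an amino acid mixture and mice given water. Members were all probe sets, the array's groups of probes for a transcript, whose single gene symbol was Hoxa, Hoxb, Hoxc or Hoxd followed by a number. There were 48 such probe sets for 33 genes, of 45037 probe sets tested in all. Hoxa, on chromosome 6, had 16 probe sets for 9 genes. Hoxb, on chromosome 11, had 11 for 9 genes. Hoxc, on chromosome 15, had 11 for 7 genes, and Hoxd, on chromosome 2, had 10 for 8 genes. By the paralogue number in the symbol, 11 probe sets were anterior (number 3 or less), 20 central (4 to 8) and 17 posterior (9 to 13). The 36 arrays came from 12 male mice of the outbred ddY stock, 5 weeks old on arrival and kept for 1 week before dosing, each with an array of every tissue. A water group (DW, 7 mice, numbers 1 to 7) and a CAAM group (5 mice, numbers 2, 4, 5, 6 and 7) were dosed by gavage once a day, 5 times, with 37.5 µL per g of body weight, and tissues were taken 4 h after the final dose. CAAM holds free amino acids in the proportions found in casein and was given as a 1.8% solution. The authors left out 2 further CAAM mice because of their liver morphology, and the labels do not name the depot that the white fat was taken from.

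Hox genes encode homeodomain transcription factors that give cells along the body axis their position. They lie in 4 clusters in which the order of the genes follows the order of their domains from head to tail, and members with the same number in different clusters, the paralogues, are close relatives. Adult connective tissue and fat precursor cells keep the Hox pattern of the place they arose from, so that fat depots of different body regions carry different Hox genes, while the adult liver is known for low Hox expression.

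The values were distribution free weighted (DFW) scores, whose level is log2-like, while the method pulls the arrays of a tissue towards each other by an amount that depends on the probe set. Differences are given in score units, since they cannot be read as log2 fold changes. Albumin, the secretory product of hepatocytes, scored 15.0 in liver and below 7 in the fats, leptin, a hormone of white adipocytes, 11.3 in WAT, while Ucp1, which uncouples respiration for heat, scored 14.2 in BAT. Of all probe sets, 99.5 to 99.9% had score ranges that did not overlap in a given pair of tissues, and limma's adjusted p was under 0.05 for 99.8 to 99.9%, so the spread between arrays could not serve as the error of a tissue difference. Tissue differences were therefore read by their size, with 0.5 score units as the main limit, against the share of all probe sets past the same limit. For the Hox members the SE of a tissue difference by limma was at most 0.00214, apart from Hoxb6 in WAT (0.0251), and the adjusted p was at most 2.11e-10. The number of arrays limits the precision of all values.

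The stretch of 250 bases before the gene start is shown for Hoxa5, Hoxc4, Hoxd8 and Hoxd9, because the first 3 were among the members that stood furthest above the liver in both fats and Hoxd8 and Hoxd9 moved together among the WAT arrays. The sequences are those of RefSeq, build GRCm38.p6, read 5′ to 3′ on the strand of the gene: Hoxa5 at chr6:52204588-52204837 (minus strand), Hoxc4 at chr15:103034145-103034394 (plus), Hoxd8 at chr2:74704365-74704614 (plus) and Hoxd9 at chr2:74697513-74697762 (plus). Capitals mark the longest run of letters that any pair of these 4 promoters shared.
Hoxa5: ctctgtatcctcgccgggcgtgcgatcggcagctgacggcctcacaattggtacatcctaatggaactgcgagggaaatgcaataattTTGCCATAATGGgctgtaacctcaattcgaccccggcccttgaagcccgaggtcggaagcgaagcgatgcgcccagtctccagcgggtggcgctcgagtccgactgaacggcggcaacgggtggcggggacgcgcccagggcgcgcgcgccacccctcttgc
Hoxc4: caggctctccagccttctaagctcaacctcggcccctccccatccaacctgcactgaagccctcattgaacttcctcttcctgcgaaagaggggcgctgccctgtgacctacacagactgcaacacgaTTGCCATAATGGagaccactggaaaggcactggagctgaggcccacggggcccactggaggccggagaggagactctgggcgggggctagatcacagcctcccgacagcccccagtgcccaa
Hoxd8: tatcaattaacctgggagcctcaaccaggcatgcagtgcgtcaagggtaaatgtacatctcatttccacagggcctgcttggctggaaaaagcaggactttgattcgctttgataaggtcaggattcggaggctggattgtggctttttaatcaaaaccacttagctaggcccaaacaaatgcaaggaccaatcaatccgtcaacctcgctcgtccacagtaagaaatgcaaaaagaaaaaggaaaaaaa
Hoxd9: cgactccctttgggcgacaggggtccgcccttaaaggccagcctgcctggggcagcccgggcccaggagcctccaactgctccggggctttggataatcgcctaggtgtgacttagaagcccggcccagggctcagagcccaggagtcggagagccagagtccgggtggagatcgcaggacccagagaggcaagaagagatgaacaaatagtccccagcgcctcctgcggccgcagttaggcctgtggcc
The run in capitals is 12 bases long, and the next longest run shared by another of the 6 pairs was 9. It ends 150 bases before the start of Hoxa5 and 110 bases before that of Hoxc4. Among 32851 promoters of the same length these letters, on either strand, were found in the promoters of Hoxa5 and Hoxc4 alone (0.00609%), but 8 of 171 pairs of Hox genes shared a run at least as long. A promoter was found for 19 of the 33 genes, and for some genes more than 1, 21 promoters in all. The letters TGATNNAT, bound by Pbx and Hox proteins together, were in 3 of these 21 on either strand, against 7.68% of all promoters. CCAAT was in 11, against 33.8%, and TATAAA in 2, against 12.4%. The Hox promoters held a median of 13 CG dinucleotides (range 2 to 35), against 6 over all promoters. A match describes the letters and is not evidence of binding.

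Both fats carried higher scores of central Hox genes than the liver did, while most posterior Hox genes differed little. WAT scored higher than liver for 37 of 48 Hox probe sets and lower for 11, against 55.5% and 44.3% of all probe sets, and BAT higher for 33 and lower for 15, against 47.4% and 52.5%. No ranges overlapped, as for 99.6% of all probe sets in WAT against liver and 99.9% in BAT against liver. WAT scored at least 0.5 units above liver for 18 of 48 Hox probe sets (20.6% of all probe sets did so) and at least 0.5 below for 2 (9.12%). BAT scored at least 0.5 above liver for 17 (12.4%) and below for 2 (11.7%). At a limit of 1 unit the counts above liver were 11 in WAT (8.34%) and 8 in BAT (4.6%), with none below (3.95% and 5.02%). At a limit of 0.1 units 36 were above and 7 below in WAT (45.2% and 32.7%), and 30 and 11 in BAT (35.5% and 39.2%). After quantile normalization 15 were at least 0.5 above liver in WAT and after centring 16, where Hoxb6 (0.456 and 0.477) and Hoxc9 (0.308 and 0.446) fell under the limit in both and Hoxa7 (0.460) after quantile normalization. Shares of all probe sets after rescaling are not given here. Of the 20 central probe sets, 13 passed the limit of 0.5 upwards in WAT and 13 in BAT, with medians of 0.777 and 0.786. The 11 anterior probe sets had medians of 0.233 in WAT and 0.147 in BAT, with 3 and 1 past the limit. The 17 posterior ones had medians of -0.0916 and -0.0748, with 2 past it upwards in WAT and 3 in BAT. Over all probe sets the median was 0.0514 for WAT minus liver and -0.0195 for BAT minus liver. By cluster, the largest share was in Hoxc, with 6 of 11 probe sets past the limit in each fat, against 4 and 5 of 16 in Hoxa, 5 and 2 of 11 in Hoxb and 3 and 4 of 10 in Hoxd. Hoxc had 8 central probe sets and no anterior ones. Among central probe sets alone its share was not the largest. In WAT and BAT, 5 and 6 of 8 were past the limit in Hoxc, 3 and 3 of 5 in Hoxa, 3 and 2 of 5 in Hoxb, and 2 and 2 of 2 in Hoxd. In a whole tissue, fewer cells of a type and less RNA per cell cannot be told apart.

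**Figure D1:**
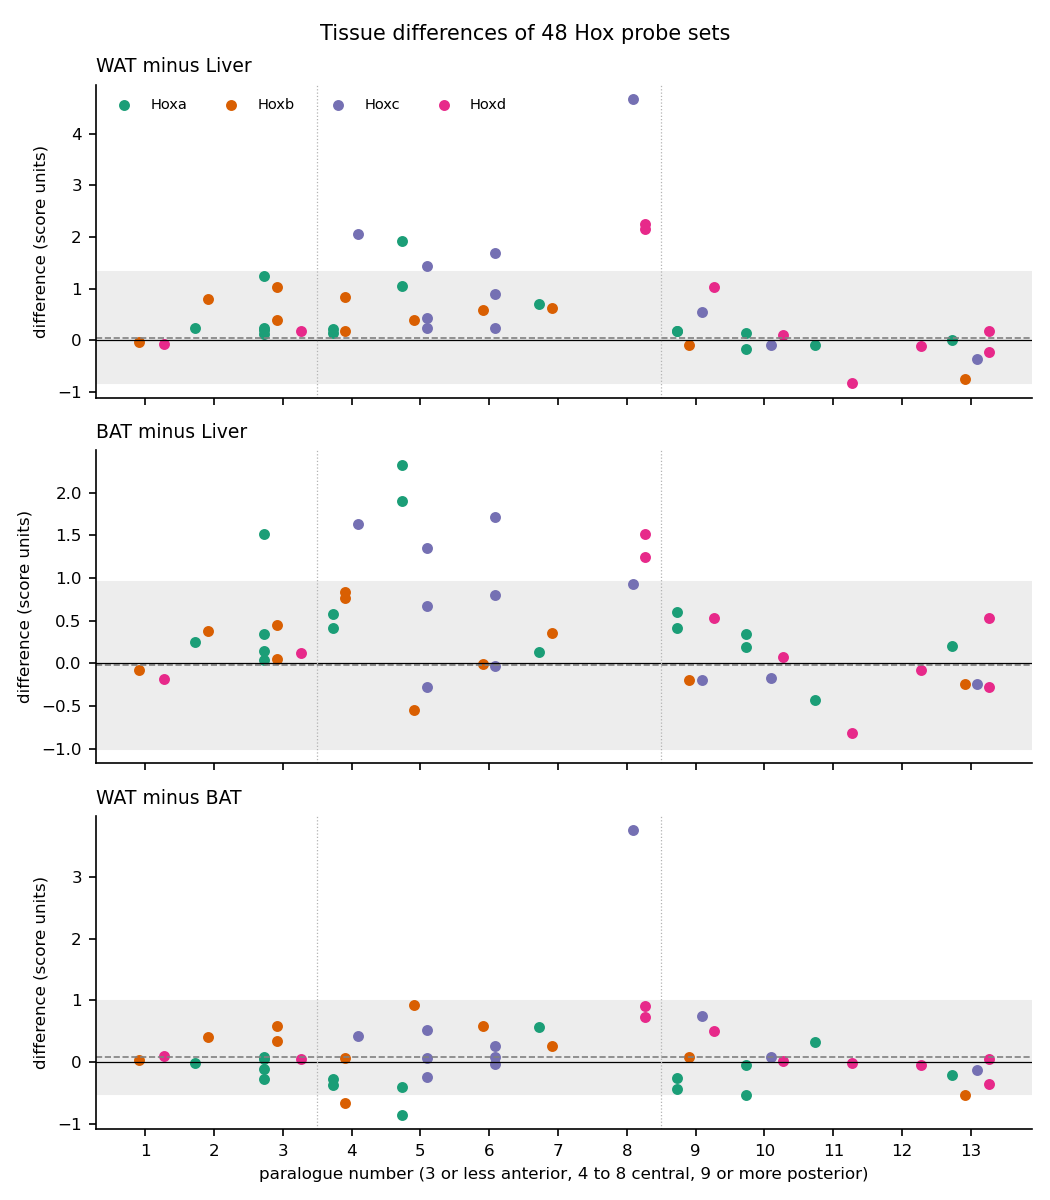
Differences between tissues in score units (vertical axis) for the 48 Hox probe sets, by paralogue number (horizontal axis), coloured by cluster. The grey band holds all 45037 probe sets but the highest 5% and the lowest 5%, the dashed line is their median, and dotted lines part anterior, central and posterior numbers. Hoxc8 stands at 4.68 for WAT minus liver and 3.75 for WAT minus BAT, above the band, and the points at numbers 10 to 13 lie close to 0 or below it except for a few.

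The paralogues with number 8 stood furthest above liver in WAT. Hoxc8, a patterning gene of the thoracic region, scored 6.12 on every liver array, 7.06 on every BAT array and 10.8 on every WAT array, when rounded. The order liver, BAT, WAT held in all 12 mice, with WAT 4.68 and BAT 0.933 above liver. A fixed order is no trait of this gene, since ranges did not overlap in a given pair of tissues for 99.5 to 99.9% of all probe sets. Hoxd8, its paralogue in the Hoxd cluster, scored 6.56 in liver, 8.07 in BAT and 8.80 to 8.81 in WAT, with a median of 8.80. Its second probe set scored 6.002 in liver, 7.25 in BAT and 8.15 to 8.16 in WAT, in the same order. The 3 probe sets of this paralogue number had a median difference of 2.25 for WAT minus liver and 1.25 for BAT minus liver.

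Hoxa5, which patterns the neck and upper chest and acts in lung development, was the member furthest above liver in BAT. It scored 6.79 in liver, 8.72 in WAT and 9.12 in BAT on every array, when rounded, which puts BAT 2.33 and WAT 1.93 above liver. The second Hoxa5 probe set gave 7.06 in liver, 8.11 in WAT and 8.96 in BAT, again with BAT above WAT. Its name marks it as prone to bind related sequences. Hoxc4, a paralogue of Hoxa4 and Hoxb4 at the head side of its cluster, scored 6.43 in liver, 8.06 in BAT and 8.49 in WAT. Hoxc6, a thoracic patterning gene, scored 6.26 in liver, 7.95 in WAT and 7.98 in BAT with the probe set of the highest mean, and the fats lay 1.69 and 1.71 above liver. Hoxc5, between these in the cluster, scored 6.24 in liver, 7.59 in BAT and 7.67 in WAT, 1.35 and 1.43 above liver. With these probe sets of Hoxc4, Hoxc5 and Hoxc6 the gap between liver and either fat was larger than the gap between the fats. Another probe set of Hoxc5 (0.245 for WAT and -0.282 for BAT against liver, 0.527 between the fats) and another of Hoxc6 (0.234, -0.0267 and 0.261) went the other way.

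The other central members showed smaller gaps. Hoxb4, known from blood stem cells, scored 6.69 in liver, 7.46 in BAT and 7.53 in WAT, and a second probe set 6.58, 7.41 and 6.75. Hoxa7 scored 7.06 in liver, 7.19 in BAT and 7.77 in WAT. Hoxb7 scored 6.33, 6.68 and 6.95 in the same order. Hoxb6 scored 6.59 in liver and in BAT and 7.08 to 7.36 in WAT, with a median of 7.15, the widest range of any member. Hoxb5, a gene of the enteric nervous system and the lung, was the central member furthest below liver in BAT, with 6.71 in liver, 6.17 in BAT and 7.09 in WAT. Hoxa4 was 0.418 higher in BAT than in liver and 0.147 higher in WAT, and 0.578 and 0.216 higher with its other probe set, whose scores lay between 6.13 and 6.71.

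Among anterior members, Hoxb2, a hindbrain patterning gene, scored 7.07 in liver, 7.45 in BAT and 7.86 to 7.87 in WAT. Hoxb3 scored 6.91 in liver, 6.96 in BAT and 7.31 in WAT, and with its other probe set 6.55, 6.998 and 7.58 to 7.60. Both genes lay in the order liver, BAT, WAT. Hoxa3, required for the thymus and parathyroid, scored 6.93 in liver, 7.16 in WAT and 7.27 in BAT. With a probe set whose name marks probes shared between transcripts it was 1.24 higher in WAT and 1.51 higher in BAT than in liver, while its other 3 were 0.128 to 0.235 higher in WAT. Hoxb1 and Hoxd1, at the head end of their clusters, scored 5.76 to 6.05 in all tissues, lower in both fats than in liver.

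Posterior members were dim in all 3 tissues, apart from paralogue 9 and Hoxd11 in liver. Hoxd9, which acts in the limbs and the lumbar region, scored 6.36 in liver, 6.88 in BAT and 7.39 to 7.40 in WAT, 1.03 above liver in WAT and 0.526 in BAT. Hoxc9, a regulator of thoracic motor neuron identity, scored 7.12 in liver, 6.93 in BAT and 7.68 in WAT, above liver in WAT alone. Hoxa9, a gene of blood progenitors, was 0.42 higher in BAT than in liver and 0.169 higher in WAT, and 0.601 and 0.177 higher with its other probe set. The members numbered 10 to 13 scored 5.88 to 6.69 on all arrays, with the exception of Hoxd11, a gene of forearm and kidney, at 7.10 in liver against 6.27 in WAT and 6.28 in BAT. Hoxb13, a gene of the tail end and the prostate, scored 6.66 in liver, 6.42 in BAT and 5.90 in WAT. A Hoxd13 probe set, of the digit and genital patterning gene, was 0.529 higher in BAT than in liver at a score of 6.52. In liver 11 of 48 members were above the median probe set of the array (50.0% of all probe sets were), in WAT 24 (50.3%) and in BAT 23 (50.1%), counting a probe set that passed on at least 1 of the 12 arrays. The posterior probe sets above it were 1 of Hoxa9 and that of Hoxc9 in all 3 tissues, those of Hoxb9 and Hoxd11 in liver, and that of Hoxd9 in both fats. The other posterior values are those of probe sets below the array median, for which no detection calls were used here.

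**Figure D2:**
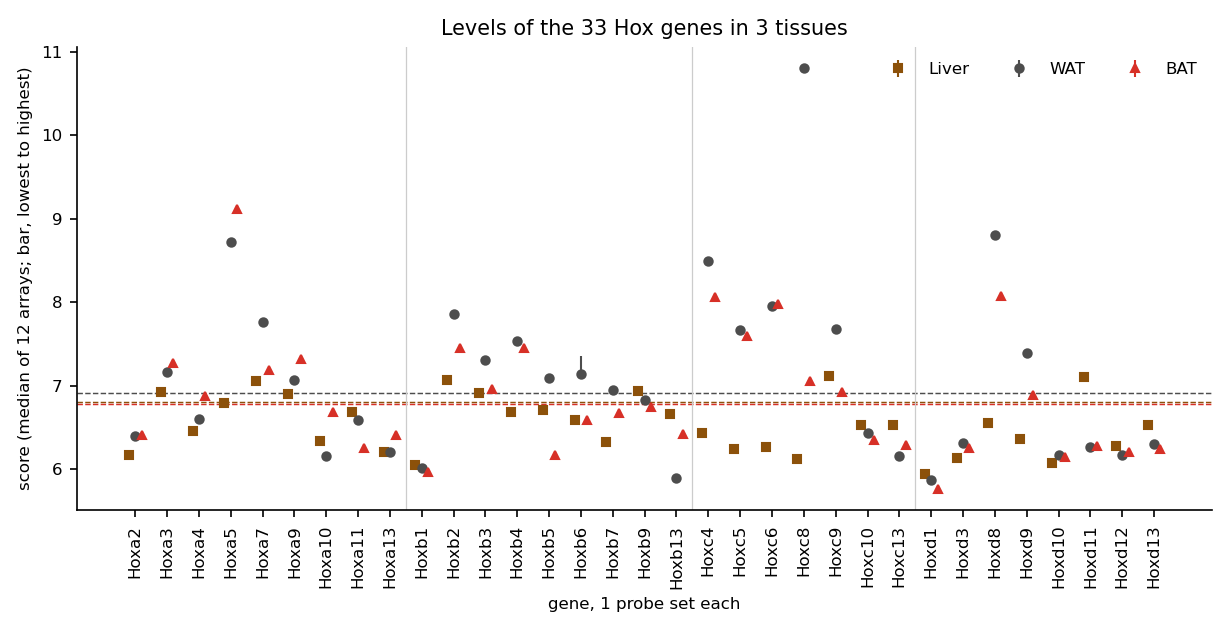
Scores (vertical axis) of the 33 Hox genes, by cluster and number (horizontal axis), in liver (squares), WAT (circles) and BAT (triangles). Each gene is shown by 1 probe set, the mark is the median of 12 arrays, the bar runs from the lowest to the highest array and is hidden by the mark except for Hoxb6 in WAT, and dashed lines are the medians of the arrays of each tissue. Hoxc8 stands at 10.8 in WAT and 6.12 in liver, Hoxa5 is higher in BAT than in WAT, and scores of different probe sets cannot be set against each other as amounts of RNA.

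The largest Hox difference between WAT and BAT was that of Hoxc8. WAT was higher in 28 Hox probe sets and BAT in 20, against 63.3% and 36.5% of all probe sets. After centring on the array medians WAT was higher in 16 and BAT in 32, and after quantile normalization in 22 and 26. Centring took 0.135 off every WAT minus BAT difference, more than the median of 0.0938 over all probe sets, so the split of all probe sets moves too. Shares of all probe sets after rescaling are not given here, so the rescaled Hox counts cannot be set against 63.3% and 36.5%. In the deposited scores the differences were past 0.1 units in 17 and 15, against 49.1% and 23.8%. WAT was at least 0.5 units above BAT for 10 of 48 Hox probe sets (17.0% of all probe sets) and BAT above WAT for 4 (5.12%). Before any rescaling Hoxc8 alone was past a limit of 1 unit, at 3.75, where 4.9% of all probe sets were past it in this direction and 1.77% in the other. The arrays of WAT had medians 0.135 above those of BAT and 0.108 above those of liver. After centring on the array medians 9 of these 14 differences were still at least 0.5, and after quantile normalization 8, with the sign unchanged in all 14. WAT then stood at least 0.5 above BAT in 5 Hox probe sets after centring, and in 4 after quantile normalization. Those 4 were Hoxc8 at 3.60, Hoxb5 at 0.799, the second Hoxd8 probe set at 0.624 and Hoxc9 at 0.505. The first Hoxd8 probe set fell to 0.415 after quantile normalization. Lower in WAT than in BAT were Hoxa5 (-0.401, and -0.846 with its other probe set), Hoxb4 with 1 of its probe sets (-0.662), Hoxa10 with 1 of its probe sets (-0.528) and Hoxb13 (-0.522). All of these gaps were wider after centring and after quantile normalization. Hoxa5 was then at -0.535 and -0.742, and its other probe set, marked by name as prone to bind related sequences, at -0.981 and -1.17. By cluster, the median of WAT minus BAT was -0.227 in Hoxa, 0.268 in Hoxb, 0.0951 in Hoxc and 0.0547 in Hoxd, against 0.0938 over all probe sets. The 3 probe sets numbered 8 had a median of 0.907. The 5 numbered 4 had a median of -0.271 but ran from -0.662 to 0.433, without a common direction. With the probe set of the highest mean, Hoxa4 was at -0.271, Hoxb4 at 0.0779 and Hoxc4 at 0.433.

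Probe sets of a gene did not always give the same direction. Of the 11 genes with several probe sets, all probe sets had the same sign in 9 for WAT minus liver, in 8 for BAT minus liver and in 6 for WAT minus BAT. Hoxc5 is an example, since WAT minus BAT was 0.0768, -0.235 and 0.527 with its 3 probe sets. Hoxc6 gave 0.234, 0.899 and 1.69 for WAT minus liver with its 3 probe sets, 1 of which is marked by name as prone to bind related sequences.

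Partners and regulators of Hox proteins were set beside them, and differences of at least 0.5 are counted. Of all probe sets 20.6% were higher and 9.12% lower in WAT than in liver, 12.4% and 11.7% in BAT than in liver, and 17.0% and 5.12% in WAT than in BAT. The list of TALE cofactors, the homeodomain proteins that bind DNA with Hox proteins, also held Pbxip1, a Pbx-interacting protein outside that family. Of its 9 measured genes, 4 were higher in WAT than in liver, among them Pbx3 by 1.27 and Pbxip1 by 0.996. In BAT against liver none was higher and 1 was lower. In WAT against BAT 3 were higher and none lower. Of 19 Polycomb genes, which keep silent Hox clusters closed, 9 were higher in WAT than in liver, Phc2 by 1.59 and Ezh1 by 1.23 among them, and 12 were higher in WAT than in BAT. In BAT against liver 1 was higher and 1 lower. Of 10 genes of the Trithorax and MLL complexes, which keep active Hox genes open, 3 were higher in each fat than in liver, Kmt2a by 1.10 in WAT and 0.547 in BAT, and 2 were lower in BAT than in liver. Psip1 was 1.36 higher in WAT than in BAT, where 3 of the 10 were higher. A list of inputs to Hox expression in the embryo held Cdx genes, genes of the retinoic acid signal, Gdf11 and Gmnn. Of these 15 genes, 5 were lower in WAT than in liver and 3 in BAT, and 1 was higher in each. Aldh1a1, which makes retinoic acid, differed from liver by -3.39 in WAT and -6.45 in BAT, and Rxra, a receptor partner, by -1.73 and -2.29. Of 21 listed RNAs from within the clusters 3 were measured. Hoxd3os1, from the opposite strand of the Hoxd cluster, scored 6.08 in liver, 6.58 in BAT and 8.42 in WAT, and Hoxa11os was 0.442 higher in WAT than in liver. Of 17 other transcription factors tied to fat depots, 3 were higher in WAT than in BAT and 5 lower. Ebf2 was 2.38 higher in WAT and 3.19 higher in BAT than in liver, and Ebf3 1.51 and 2.48 higher. Named after their values were seen, Zic1 was lower in WAT than in BAT, at -1.79, and Tcf21 1.95 higher in WAT than in BAT. All 8 mesothelial markers were at least 0.5 higher in WAT than in either other tissue, as were all 7 measured fibroblast and preadipocyte markers than in BAT (6 of 7 than in liver). Of 8 endothelial markers, 5 were higher in WAT than in BAT and 6 than in liver, and of 12 muscle markers 8 were higher in BAT than in WAT and 9 than in liver. The part of these cell types in the Hox differences was not tested. The tissue differences of the named members kept their sign without DW mice 1 and 2 and CAAM mice 6 and 7, left out for male tract genes in WAT. The same held without the first 3 of these alone, and without the 4 mice whose BAT arrays were highest in muscle markers. No Hox ranges overlapped between any pair of tissues, so leaving out mice could not turn a sign. The kept signs therefore say nothing about the part of such cells.

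Within WAT, several Hox genes varied between mice together, in a pattern chosen after the values were seen. Hoxb6 scored 7.36, 7.23, 7.11, 7.14, 7.13, 7.08 and 7.15 in DW mice 1 to 7 and 7.13, 7.13, 7.20, 7.32 and 7.15 in CAAM mice 2, 4, 5, 6 and 7. DW mouse 1 and CAAM mouse 6 were the highest, followed by DW mouse 2, and the groups overlapped. Hoxd8 was 0.0114 above its WAT median in DW mouse 1 and 0.0116 in CAAM mouse 6, and at most 0.00509 above it elsewhere. Hoxd9 was 0.00991 and 0.00964 above in the same mice, and at most 0.00345 elsewhere. These were the highest 2 WAT arrays for 13 of 48 Hox probe sets (4.65% of all probe sets), which were 6 of 11 in Hoxb (Hoxb2, Hoxb3, Hoxb4, Hoxb5 and Hoxb6), 5 of 10 in Hoxd (Hoxd1, Hoxd3, Hoxd8 and Hoxd9), 2 of 16 in Hoxa (Hoxa9 and Hoxa10) and 0 of 11 in Hoxc. In liver the same mice were the highest 2 for 2 of 48 (1.66%) and in BAT for 1 (1.75%).

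The Hoxc cluster went the other way in CAAM mouse 6. That mouse had the lowest WAT score for 8 of 11 Hoxc probe sets (all those of Hoxc4, Hoxc5, Hoxc6 and Hoxc8), 5 of 16 in Hoxa (Hoxa2, Hoxa3, Hoxa5 and Hoxa7), 0 of 11 in Hoxb and 2 of 10 in Hoxd, 15 of 48 in all, against 21.4% of all probe sets. It had the lowest score for 8 of 48 in liver (8.29%) and 4 in BAT (7.27%). The deviation from the WAT median in this mouse was -0.00296 for Hoxc4, whose other deviations ran from -0.00105 to 0.00118, and -0.00211 for Hoxa5. DW mouse 1 did not share this, with Hoxc4 0.000497 above its WAT median. The WAT arrays also differed in genes of the epididymis and male tract, of which 7 of 12 listed were measured. Their mean score was 11.7 in DW mouse 1, 10.7 in DW mouse 2 and 9.80 in CAAM mouse 6, against 6.63 in liver and 6.41 in BAT. In the other 9 it was 7.40 to 7.92 in DW mice, 7.34 in CAAM mouse 7 and 6.42 to 6.44 in CAAM mice 2, 4 and 5. The genes did not share 1 pattern. Lcn8 (9.32 to 19.8) and Gpx5 (9.98 to 18.4) were high in all DW mice and at most 6.96 in CAAM mice. Lcn5, Serpina1f and Spint4 were highest in CAAM mouse 6 (11.3, 11.2 and 12.1), and Adam7 and Ros1 in DW mouse 1 (16.2 and 6.24). The part of such cells in the Hox pattern of the WAT arrays was not tested.

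**Figure D3:**
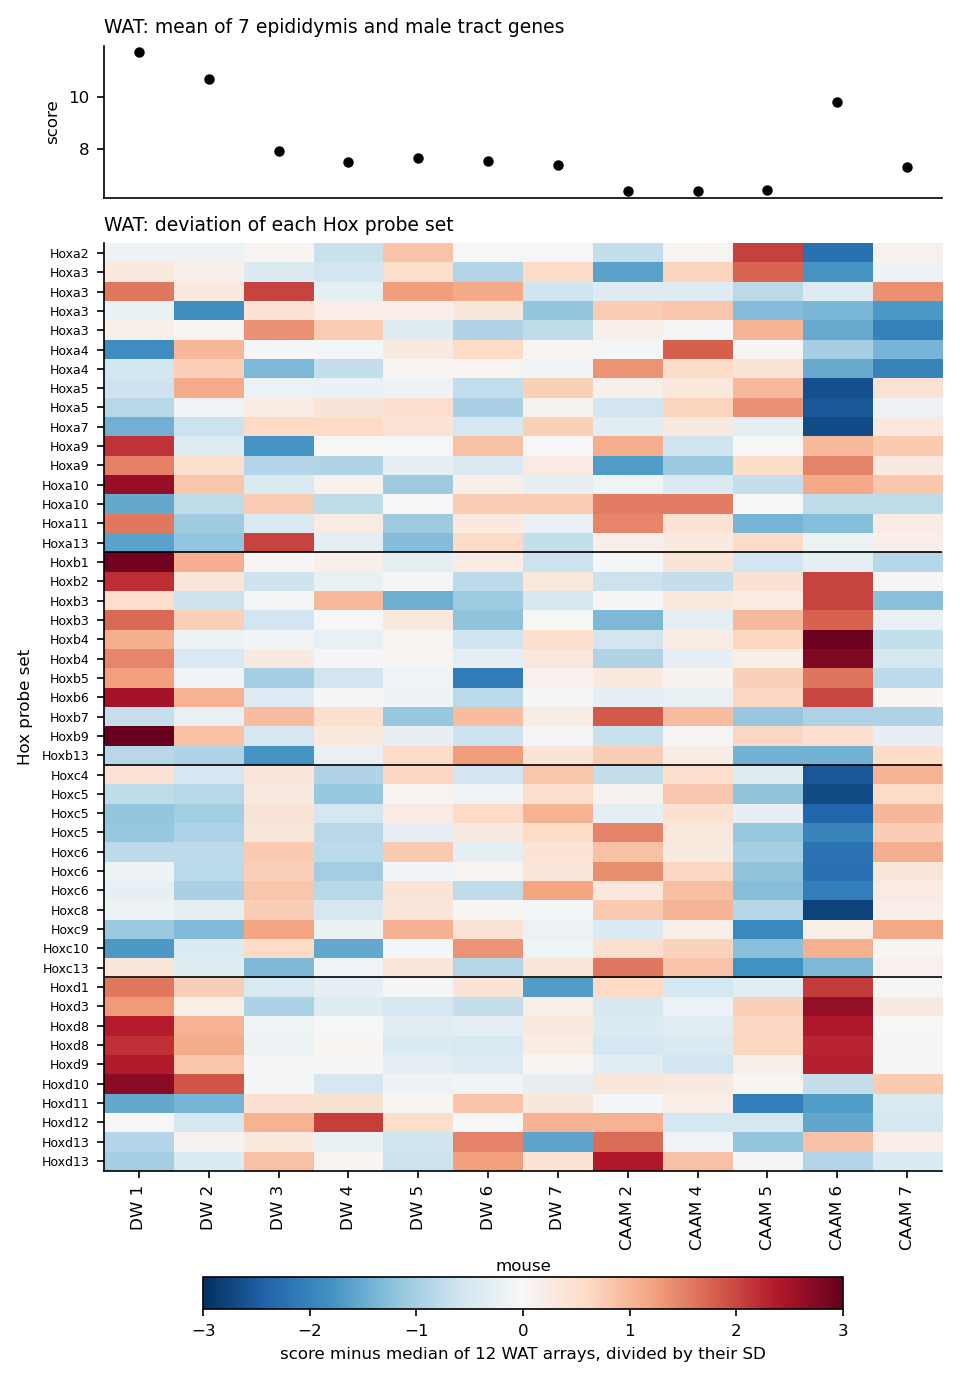
WAT of the 12 mice (horizontal axis). The top panel gives the mean score of 7 genes of the epididymis and male tract, and the lower panel the deviation of each of the 48 Hox probe sets from its median over the WAT arrays, divided by its SD, with colours limited to 3 SD and black lines between clusters. DW mouse 1 and CAAM mouse 6 are high in much of Hoxb and in Hoxd up to Hoxd9, and CAAM mouse 6 is low in Hoxc from Hoxc4 to Hoxc8.

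CAAM was then compared with water within each tissue, as the study did, by rank products, which ranks the differences of all 35 pairs of a CAAM and a DW array and estimates the share of false positives among the calls. In WAT 1 of 48 Hox probe sets was called higher, that of Hoxb6 (estimated share of false positives 0.0209, where 1.18% of all probe sets were called higher), and none lower (1.27%). Its difference was 0.0109 ± 0.0503 (SE), less than the spread between arrays, and 3 of 5 CAAM mice were above the DW median. limma gave it an adjusted p of 1.0. The rank product call was lost without DW mouse 3 or 6 or CAAM mouse 5, 6 or 7. The difference was 0.00116 without DW mouse 3, 0.0414 without DW mouse 1 and 0.0266 without the 3 mice with the highest male tract mean (1 member still called higher), 0.0263 without these and CAAM mouse 7 (none called), and it turned to -0.00475 without DW mouse 6 and to -0.0221 without CAAM mouse 6.

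In liver and BAT rank products called 0 of 48 Hox probe sets (background 1.99% higher and 0.806% lower in liver, 1.51% and 1.44% in BAT). limma called none of the 48, and none of all 45037 probe sets, in any tissue at an adjusted p under 0.05. At an unadjusted p under 0.05 it passed 1 member in liver, Hoxa10 (lower after CAAM, as were 4.03% of all probe sets), 0 in WAT and 3 in BAT, which were Hoxa4, Hoxa9 and Hoxd13 (lower, as were 2.64%). It passed no member as higher, against 2.74% of all probe sets in liver, 1.97% in WAT and 3.77% in BAT, and none as lower in WAT, against 2.0%. The mean of the CAAM group was the higher for 13 of 48 members in liver (44.5% of all probe sets), 21 in WAT (51.1%) and 12 in BAT (49.2%).

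A Hoxa4 probe set in BAT had the lowest p of all members. It is marked by name as prone to bind related sequences and lay below the array median on every BAT array, at a score of 6.71. The other Hoxa4 probe set did not pass an unadjusted p under 0.05 (limma). Scores of the marked probe set deviated from the BAT median by -1.72e-06 to 5.52e-06 in the 7 DW mice, by -1.62e-07 in CAAM mouse 2 and by -2.38e-05 to -2.01e-05 in CAAM mice 4, 5, 6 and 7. All 5 CAAM mice lay below the DW median, but the groups overlapped through CAAM mouse 2. The difference was -2.01e-05 ± 3.78e-06 (SE, limma, adjusted p = 0.547). Without CAAM mouse 2 it was -2.45e-05 and passed (limma, adjusted p = 0.00137), and without the 4 mice highest in muscle markers, CAAM mouse 2 among them, it was also -2.45e-05 (limma, adjusted p = 0.0462). Over the other alternatives for this difference the adjusted p of limma ran from 0.183 to 0.934. The 12 muscle markers had a mean score of 6.79 to 10.1 in BAT of DW mice and 6.59 to 9.69 in CAAM mice, and their part in the difference was not tested. After quantile normalization the Hoxa4 difference turned to 0.000204 and after centring to 0.000353.

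**Figure D4:**
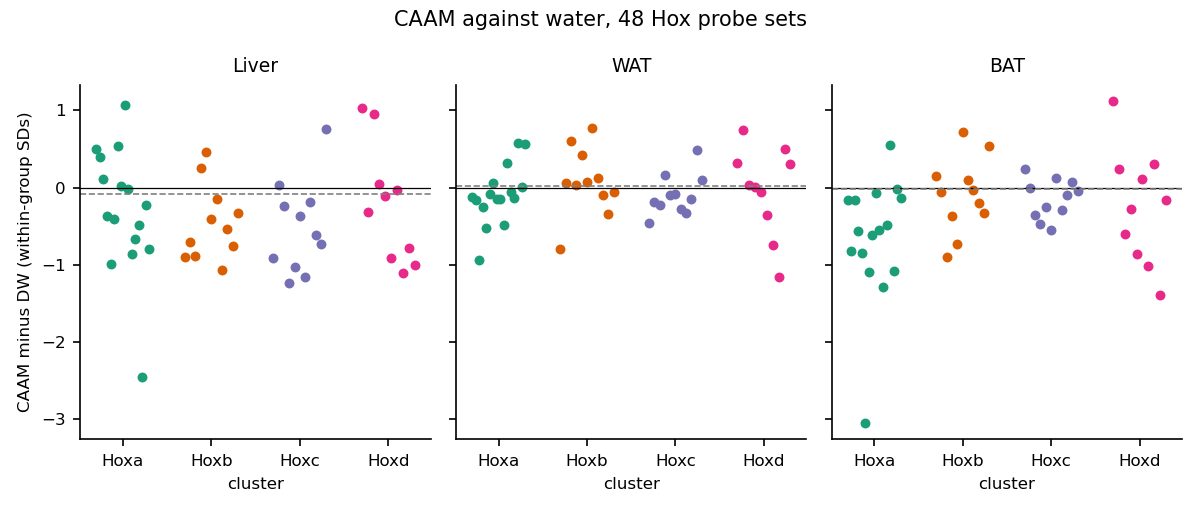
CAAM minus DW for the 48 Hox probe sets in liver, WAT and BAT, in units of the SD within groups (vertical axis), by cluster (horizontal axis). Each point is a probe set, and the dashed line is the median over all 45037 probe sets. The lowest points are Hoxa10 in liver at -2.45 and Hoxa4 in BAT at -3.05, and the medians of the members are -0.391 in liver, -0.0716 in WAT and -0.224 in BAT.

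The effect of CAAM was also compared between tissues within mice. limma called 0 of 48 Hox probe sets, and none of all probe sets, for each pair of tissues. At an unadjusted p under 0.05 the shares of all probe sets were 5.38% for WAT against liver, 6.19% for BAT against liver and 5.57% for WAT against BAT. The member with the lowest value for BAT against liver was Hoxa4 (adjusted p = 0.583), for WAT against liver Hoxa10 (adjusted p = 0.895) and for WAT against BAT Hoxa9 (adjusted p = 0.837), all by limma.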

How the data were processed

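Total RNA of liver, WAT and BAT was hybridised by the authors to Affymetrix GeneChip arrays of the mouse genome, and the CEL files were quantified by the DFW method in Bioconductor (R 2.7.2 by the submission notes). The deposited values are 1 DFW score per probe set and array, not pooled. Whether the tissues were quantified in 1 run is not given in the sources used here, which bears on every tissue difference. A second amino acid mixture of the study was not analysed here.

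Of 45101 probe sets, 64 controls were left out. Platform annotation gave 18193 single gene symbols, and 3 Hox probe sets with several symbols were not members. Lists and the plot of levels use, for each gene, the probe set of highest mean score. Tissues were compared by limma 3.58.1 (R 4.3.3) on differences within mice, since titles give each tissue the treatment and number of the mouse. Deviations of the same mouse correlated by -0.0211 to 0.333 between tissues. The test was planned for values whose spread between arrays is an error, which DFW scores do not give, and it was kept as planned and read by size. CAAM was compared with DW by rank products (python 3.11.15, numpy 2.4.6, pandas 2.3.3, 100 permutations, 20 for alternatives, calls under 0.05) and limma (lmFit, eBayes, two-sided), with Benjamini-Hochberg adjustment over all 45037 probe sets. Scripts were tested on simulated data. Named were members with a difference of at least 0.5 in a tissue pair or a CAAM call, the 3 members of lowest p per tissue, and the 2 genes of each regulator list with the largest difference. Members, lists, and the sets of 4 mice left out for male tract or muscle genes were chosen with earlier results of these data known, and a set of 3 was added after seeing the data. Alternatives were quantile normalization, centring, leaving out dim probe sets, the mean per gene, other limits, priors, blocks and leaving out each mouse. Promoters and symbols came from RefSeq tables, and figures were drawn with matplotlib 3.10.9.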

Additional observations from a re-analysis of the deposited data

Results flagged for a closer look

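Among 138 groups of 5 or 7 arrays, over 23 named members, 10 held an array whose gap to the rest was unusually large for the range of the group. Chance gives about 1 such group in 20. The 4 in WAT of CAAM or DW mice that concern the pattern described above were Hoxd9 in CAAM mouse 6 (score 7.40, 0.0104 above the median of the others), Hoxb4 in CAAM mouse 6 (7.54, 0.000551 above), Hoxb4 in DW mouse 1 (7.53, 0.000257 above) and Hoxb2 in DW mouse 1 (7.87, 0.00731 above). Hoxa7 in WAT of CAAM mouse 6 stood below its group (7.77, by -0.000195). In BAT, Hoxd9 in DW mouse 1 (6.88) was 3.61e-05 above its group, Hoxd12 in CAAM mouse 2 (6.21) was 2.01e-05 above, and Hoxb2 in DW mouse 6 (7.45) differed by -0.00014. In liver, Hoxb2 in DW mouse 6 (7.07) differed by -4.86e-05 and Hoxd13 in CAAM mouse 7 (6.53) by 5.39e-05. These deviations are small against the tissue differences of the same genes.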

How the results depend on the processing

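The tissue counts were unchanged when any 1 mouse was left out. Those by sign could not change, since no Hox ranges overlapped between tissues. At a limit of 0.1 score units the counts above and below liver became 36 and 7 in WAT and 30 and 11 in BAT, and those of WAT above and below BAT 17 and 15. At a limit of 1 they were 11 and 0, 8 and 0, and 1 and 0. Without probe sets below the array median on all arrays of both tissues, 26 members were left against liver and 27 between the fats. Of these, 24 were higher and 2 lower in WAT than in liver, 21 higher and 5 lower in BAT, and 18 higher and 9 lower in WAT than in BAT, while 1, 1 and 2 were lower by at least 0.5. Only 11 members were above the array median in liver, so most of the 26 passed this filter through a fat alone. The filter thus partly sets these splits in advance, and they say nothing more about direction. Shares of all probe sets left by the filter are not given here. With the mean of the probe sets of each of 33 genes, 22 genes were higher in WAT than in liver and 21 in BAT (10 by at least 0.5), and 13 were lower in WAT than in BAT (2 by at least 0.5). Centring turned the split of WAT against BAT from 28 higher and 20 lower to 16 and 32, with 5 higher by at least 0.5, and quantile normalization left 4. Shares of all genes or probe sets under the mean per gene, centring and quantile normalization are not given here. The fit with no replicate block, which takes the arrays of a mouse as independent, changed no count of tissue differences.

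Mice with the same number in both groups did not deviate together (correlations of -0.192 to 0.151), so their numbers give no pairing, and with the number as a replicate block the call of Hoxb6 in WAT was lost (0 of 48). That count was also 0 with differences divided by the SD and without DW mice 1 and 2 and CAAM mice 6 and 7, but 1 without the first 3 of these, the mice with the highest male tract mean (chosen after seeing the data), and 0 to 1 when 1 mouse was left out, while with differences divided by the SD 1 member was called lower in liver and 1 in BAT. limma's count in BAT was 1 without the 4 mice highest in muscle markers and 0 to 1 when 1 mouse was left out. Signs turned in WAT for Hoxa3 (3.08e-05 after quantile normalization, 0.000309 after centring), Hoxd12 (6.95e-05 and 0.000314) and Hoxb1 (0.000151 after centring, 5.93e-06 without the 4 mice left out for male tract genes), and in BAT for Hoxa4 (0.000204 and 0.000353), Hoxa9 (0.00078 and 0.000353) and Hoxd13 (0.000185 and 0.00037). The difference of Hoxb6 in WAT ranged from -0.0221 (without CAAM mouse 6) to 0.0414 (without DW mouse 1) when 1 mouse was left out, and was also negative without DW mouse 6 (-0.00475). The cause of these changes was not tested.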
